A study of Mus musculus with 2 samples.

Results

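The genes described here are those whose bodies are mostly filled by 5hmC peaks in mouse prospermatogonia, the germ cells of the testis before birth. They were chosen from the peaks of 1 captured library. A gene was included when it was protein-coding, lay on an autosome, was 5 kb or longer, and had over 50% of its body under peaks, the body being its span less 1 kb at each end. Of 15771 genes that could be chosen, 171 were, which is 1.08% (exact Clopper-Pearson 95% interval 0.929 to 1.26, for counting error only). Before this, 277 genes were left out by symbol, 7 of them over the limit: those starting with Rpl, Rps, Krt, Kcn, Col or Rab and a few single genes.

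The samples are wild-type (WT) germ cells of E17.5 embryos, pooled from several embryos. They comprise 1 library captured for 5hmC through a biotin tag and 1 library of the same kind of DNA before capture, both of batch 1, and 30000 frozen cells and 50 ng of sheared DNA went into the capture. A peak list of the captured library was used, and values of the library before capture were not analysed here. The labels give no strain and no method of cell isolation, and a pool of embryos leaves no spread between animals. No read counts come with the list, and its depth is therefore unknown. With 1 library there is no test across samples, and every value describes this library. A peak list holds no RNA, so the labelled cell type could not be checked against expressed markers.

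5-Methylcytosine (5mC) is the common DNA methylation mark of mammals, and TET enzymes oxidise it to 5hmC. In embryonic stem cells and neurons 5hmC is known to lie in the bodies of transcribed genes and to be low at the cores of CpG-rich promoters. The male germline loses most of its methylation early in development and regains it in prospermatogonia, the stage sampled here.

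The covered genes carried wide peaks that mostly stopped short of the 5′ end of the gene. Strand was taken from a RefSeq promoter table (build GRCm38.p6, the same as mm10), which holds 127 of the 171 genes and 12562 of the 15771 tested. The promoter taken was the 300 bases from 250 before to 50 after the listed start nearest the outer 5′ end of the gene. In 116 of the 127 genes that start lay within 1 kb of the outer end. A peak touched this promoter in 3 of 127 covered genes (2.36%, exact interval 0.490 to 6.75), against 3.26% (2.96 to 3.59) of all genes tested with a strand. The interval of the covered genes holds the value of all genes. A listed start over 1 kb inside the gene lies in the body that the rule used, and a body peak can reach other promoters. The promoter values are thus not independent of the choice, and this comparison does not decide whether the promoters differ. Only the promoters of Il3ra, which encodes an interleukin receptor chain, and Dpep3, a dipeptidase gene, lay wholly under a peak. That of Pkn3, a protein kinase gene, was 23.0% covered. No peak lay in the 1 kb just inside the outer 5′ end of Pkn3 or in the 5 kb before it. The 5 promoters below set those 2 beside the 3 genes with the largest body share whose promoter had no peak, Klhl17, Igsf8 and Aqp3. They read 5′ to 3′ on the strand of the gene, and capitals mark CpG, the dinucleotide that carries most methylation.
Il3ra chr14:14346245-14346544 (+ strand): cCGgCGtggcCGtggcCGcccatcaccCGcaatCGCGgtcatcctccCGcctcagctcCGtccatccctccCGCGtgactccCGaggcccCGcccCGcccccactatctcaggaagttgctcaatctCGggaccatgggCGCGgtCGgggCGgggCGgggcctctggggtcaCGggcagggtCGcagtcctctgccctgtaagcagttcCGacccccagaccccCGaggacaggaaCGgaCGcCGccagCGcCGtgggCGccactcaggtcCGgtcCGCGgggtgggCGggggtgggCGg
Dpep3 chr8:105979370-105979669 (- strand): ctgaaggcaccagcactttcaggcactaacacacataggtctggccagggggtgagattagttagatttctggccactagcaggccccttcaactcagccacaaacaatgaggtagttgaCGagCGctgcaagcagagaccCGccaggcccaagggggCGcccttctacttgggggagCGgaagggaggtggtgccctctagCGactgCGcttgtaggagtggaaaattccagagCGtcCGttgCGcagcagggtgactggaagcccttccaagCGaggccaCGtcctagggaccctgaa
Klhl17 chr4:156234808-156235107 (- strand): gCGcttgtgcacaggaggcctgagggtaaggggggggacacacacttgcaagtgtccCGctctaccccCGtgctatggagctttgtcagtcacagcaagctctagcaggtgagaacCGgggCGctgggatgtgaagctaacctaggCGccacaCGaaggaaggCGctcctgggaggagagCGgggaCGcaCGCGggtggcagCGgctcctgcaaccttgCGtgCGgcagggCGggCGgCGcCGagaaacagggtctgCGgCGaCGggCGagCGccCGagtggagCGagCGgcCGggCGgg
Igsf8 chr1:172312117-172312416 (+ strand): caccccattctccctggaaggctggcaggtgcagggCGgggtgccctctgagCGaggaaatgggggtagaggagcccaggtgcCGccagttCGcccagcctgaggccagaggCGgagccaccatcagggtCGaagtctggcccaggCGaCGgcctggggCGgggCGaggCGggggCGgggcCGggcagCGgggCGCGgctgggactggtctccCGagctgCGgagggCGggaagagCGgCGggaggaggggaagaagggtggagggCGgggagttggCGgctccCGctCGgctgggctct
Aqp3 chr4:41098134-41098433 (- strand): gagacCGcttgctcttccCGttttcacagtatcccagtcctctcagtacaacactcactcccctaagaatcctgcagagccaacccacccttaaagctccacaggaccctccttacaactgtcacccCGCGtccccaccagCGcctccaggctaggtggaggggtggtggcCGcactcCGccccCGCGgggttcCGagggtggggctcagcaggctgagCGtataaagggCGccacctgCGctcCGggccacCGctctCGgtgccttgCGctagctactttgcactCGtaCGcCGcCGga

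The Il3ra promoter holds 35 CpGs and that of Dpep3 12. Those of Klhl17, Igsf8 and Aqp3, with no peak, hold 29, 25 and 21. Over all 127 covered genes the promoter held a median of 21 CpGs, ranging from 1 in Ren1, the renin gene, to 51 in Pomgnt1, a glycosyltransferase gene, and in Atxn7l3, a gene of a histone-modifying complex. The median over all tested promoters was 17. GC content had a median of 61.7% in covered genes and 58.7% in all. Among genes under 20 kb the medians were 20 CpGs in covered genes and 14 in all, and GC content was 61.7% and 56.3%. The GC box GGGCGG, on either strand, was present in 92 of 127 promoters of covered genes (72.4%, 63.8 to 80.0) and in 53.5% of all tested promoters. In genes under 20 kb, the range in which most covered genes lie, it was present in 72.2% and 46.7%. CCAAT was present in 28.3% of covered and 38.0% of all promoters, and TATAAA in 6.30% and 9.21%, on either strand. These motifs were searched as letters only, and the base composition of gene bodies was not analysed here.

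The profile of coverage along the gene shows the gap at the 5′ end. In bins of 200 bp, mean coverage of the covered genes was lowest 300 bp before the 5′ end, at 1.57%. All tested genes had their lowest value, 1.90%, 500 bp before that end. Coverage of the covered genes had risen to 9.05% at 900 bp inside the gene, 41.3% at 1900 bp and 75.5% at 3900 bp. The part from 1 kb inward is what chose these genes, so its height is a description of the choice. The bins within 1 kb of the end were not used by it, but a peak of the body can run on into them.

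**Figure D1:**
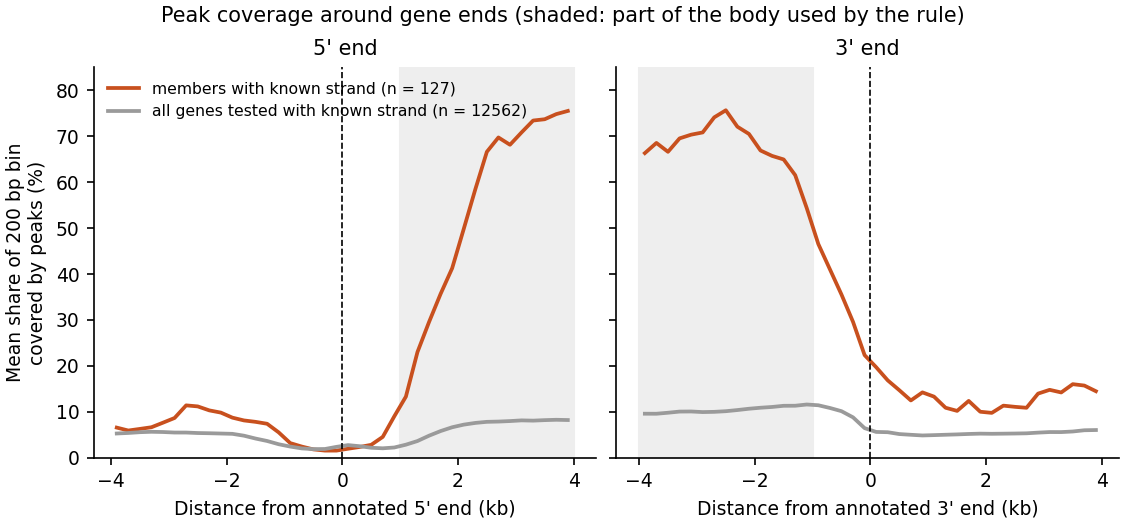
Mean share of each 200 bp bin covered by peaks (%), against distance from the annotated 5′ end (left) and 3′ end (right) in kb, for the 127 covered genes with a known strand (orange) and all 12562 tested genes with one (grey). The orange line falls to 1.57% just before the 5′ end, near the grey line, while at the 3′ end it stands at 22.4% just inside and 19.7% just outside the gene; grey shading marks the body that the rule used.

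At the 3′ end peaks ran on to the boundary more often. The 1 kb just inside the 3′ end held a peak in 76 of 127 covered genes (59.8%, 50.8 to 68.4), and the 1 kb just inside the 5′ end in 13 (10.2%, 5.56 to 16.9). Neither window was used by the rule, but both adjoin the body, and a peak of the body can run on into them. Their coverage is therefore not independent of the choice. In all tested genes the same windows held a peak in 19.1% and 5.44%, so the order of both ends was the same there. Among genes under 20 kb the 3′ window held a peak in 69 of 115 covered genes and 21.4% of all, and the 5′ window in 10.4% and 6.61%. The 3′ window was covered more than the 5′ window in 73 covered genes and less in 8, with 46 equal. In all tested genes with a strand it was covered more in 18.6% and less in 4.73%, with 76.7% equal, so the 3′ window also led in general. Mean coverage was 22.4% in the last 200 bp of the gene, 19.7% in the next 200 bp beyond it and 12.5% at 700 bp beyond. Inside the body, 83 of 127 genes had more coverage on the 3′ side of the midpoint and 43 on the 5′ side. In all tested genes with a strand 40.7% had more on the 3′ side, 33.5% more on the 5′ side and 25.8% the same on both. The median was 70.5% on the 3′ side and 52.7% on the 5′ side in covered genes, and 2.80% and 2.19% in all. The body is what the rule used, so these values describe the choice. Genes that broke this pattern included Lamb2, with 51.9% of the 5′ window and none of the 3′ window covered, and Ren1, with 90.3% and 11.1%.

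Of all 171 covered genes, strand aside, 13 (7.60%, 4.11 to 12.6) had a peak in both end windows, against 1.25% of all tested genes. Only Il3ra and Psmc3, a proteasome subunit gene, had both windows over 50% covered. Outside the gene, the 5 kb on each side had a median coverage of 7.51% in covered genes and 0% in all, or 7.69% and 2.09% among genes under 20 kb. The flanks of the covered genes ranged from 0% to 44.7%. End windows and flanks were read from the same peaks as the body, so they are not independent of the choice.

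The peaks in these bodies were wide, and their median fold was slightly above that of all peaks. The fold of a peak is the authors' enrichment over the background their caller assumed, and its q is their corrected significance. Covered bodies held 357 peaks with a median width of 2462 bp, against 662 bp for the 53945 peaks in all tested bodies. Their median fold was 3.52, against 3.24 in all tested bodies and 3.34 in all autosomal peaks. Their median −log10 q was 2.12, against 1.67 in all tested bodies and 1.82 in all autosomal peaks. Peaks over 5 kb made up 10.1% of them and 0.421% of the peaks in all bodies. A −log10 q of 5 or more was reached by 3.92% of the peaks in covered bodies, 4.83% of those in all bodies and 11.9% of all autosomal peaks. These values come from the peaks that chose the genes, so they are descriptions.

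A single peak was enough in many genes. There was 1 peak in the body of 75 covered genes, 2 in 57, 3 or 4 in 27, and 5 or more in 12. The widest peak alone covered over 50% of the body in 89 genes. Genes with many body peaks included Plec with 9, Kmt2d with 8, and Timeless and Gpr180 with 7. Plec encodes the cytoskeletal linker plectin, Kmt2d a histone methyltransferase, Timeless a replication fork protein and Gpr180 a membrane protein.

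**Figure D2:**
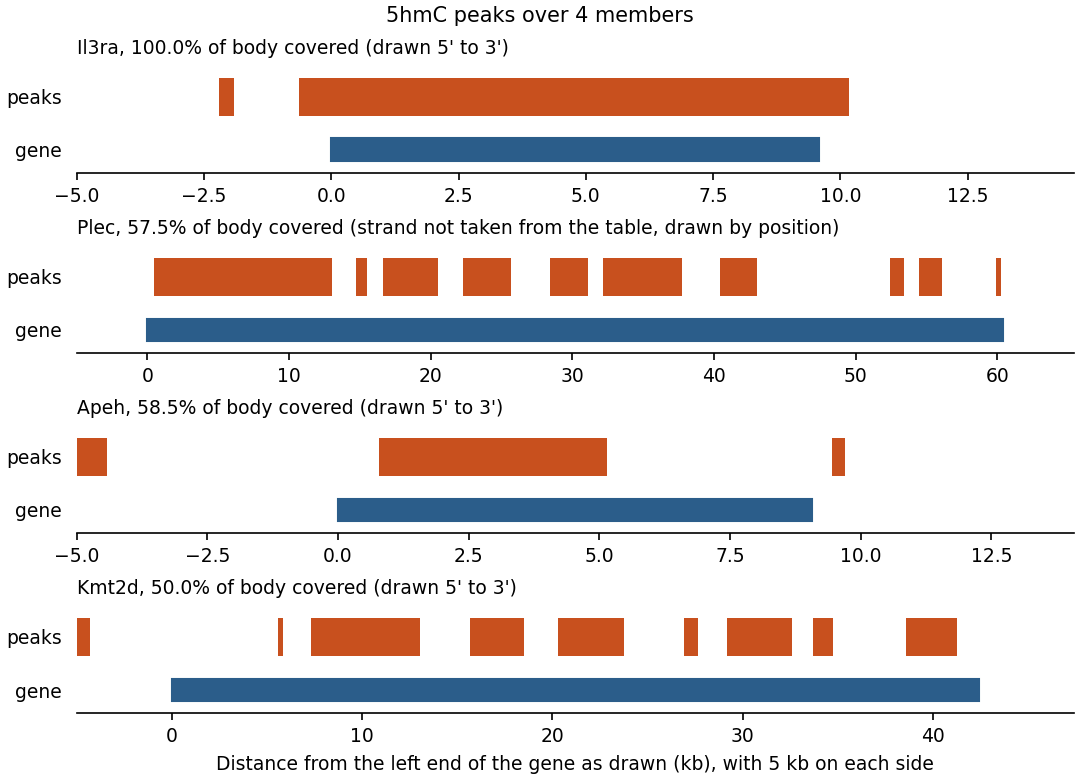
Peaks (orange) over the span (blue) of the gene with the largest body share (Il3ra), the longest gene (Plec), the gene of middle rank (Apeh, of a peptidase that acts on acylated peptides) and the gene of lowest share (Kmt2d), with 5 kb on each side; the axis is distance in kb from the left end as drawn. Il3ra lies under 1 peak, Apeh under 1 peak that leaves its 3′ part free, and Plec and Kmt2d under 9 and 8 separate body peaks.

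Il3ra had the largest body share, 100%, and the highest fold, 7.22. It lies on chromosome 14 from 14345912 to 14355493, and 1 peak from 14345278 to 14356073, 10796 bp wide, extends past both of its ends. The next highest fold was 7.19 in Pxt1, a gene of male germ cells. Selenon, which encodes a selenoprotein of the endoplasmic reticulum, followed at 6.72, Hsp90aa1, an inducible chaperone gene, at 6.70 and Dspp, a tooth matrix gene, at 6.48. The best fold per covered gene had a median of 3.75 and ran from 2.86 in Atp5o, an ATP synthase subunit gene, to that of Il3ra. The median of all 11782 tested genes with a peak was 3.80. The best fold is the highest of all peaks in a body, so it can rise with the number of peaks. The median fold of the peaks of each gene had a median of 3.55 in covered genes and 3.27 in tested genes with a peak.

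Strength separated a few genes from the rest. With peaks of −log10 q of 3 or more, 16 genes had over 50% of the body covered (0.101% of those tested). These peaks are part of the full list, so all 16 had to be among the 171. With 5 or more there were 7 (0.0444%), namely Il3ra, Pxt1, Hsp90aa1, Sirt7, Cd8a, Zbtb39 and Dspp. Sirt7 encodes a nuclear deacylase, Cd8a a T cell co-receptor and Zbtb39 a zinc-finger protein. Klhl17, Igsf8, Aqp3, Lynx1, Npepl1, Pheta1, Lamb2, Shmt2 and Ptbp1, which follow Il3ra by body share, had 0% of the body under peaks of −log10 q of 3 or more.

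**Figure D3:**
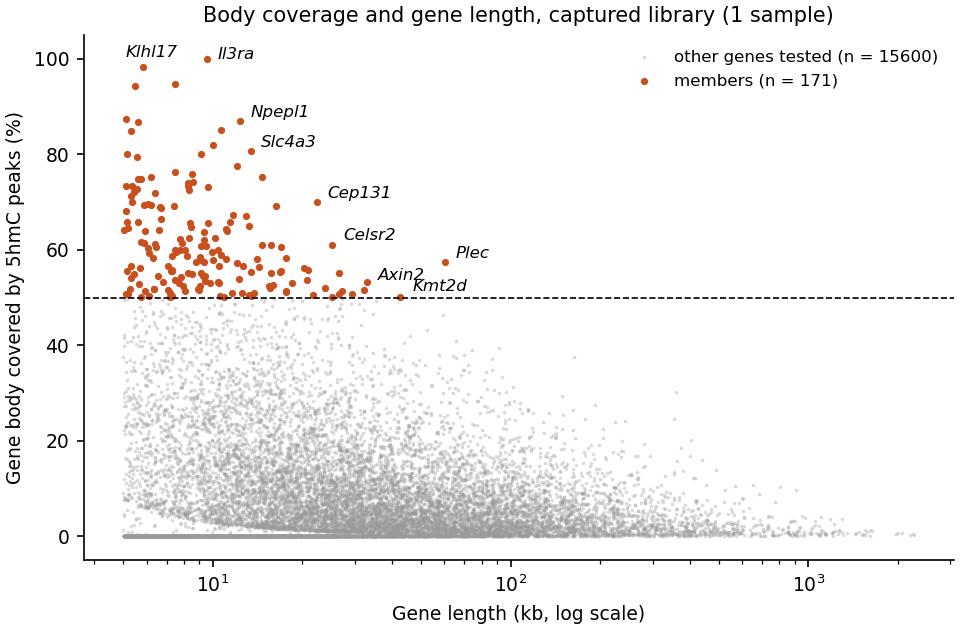
Share of the gene body covered by peaks (%) against gene length (kb, log scale) for the 171 covered genes (orange) and the other 15600 genes tested (grey), 1 library. Of the 171 covered genes 155 are under 20 kb, and Plec, at 60.4 kb, is the longest above the dashed 50% line.

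The covered genes were short. Their median length was 8.54 kb, against 25.9 kb for all tested genes. A peak of a given width fills more of a short body, and the share of tested genes that were covered fell with length. It was 4.01% of 2694 genes of 5 to 10 kb, 1.27% of 3688 genes of 10 to 20 kb, 0.315% of 4767 genes of 20 to 50 kb and 0.0216% of 4622 longer genes. Among the longest covered genes were Plec (60.4 kb), Kmt2d (42.4 kb), Axin2 (33.0 kb), which encodes a Wnt pathway inhibitor, and Fbxo31 (29.4 kb), of a ubiquitin ligase subunit. Body shares over all tested genes had a median of 4.10% and were 0% in 3989 genes. A share over 40% was found in 382 genes, over 60% in 77, over 75% in 19 and over 90% in 4. The 50% line thus cuts a continuous tail. Just inside it were Kmt2d (50.02%), Ccdc51 (50.07%), Dusp7 (50.07%), Gpr162 (50.08%) and Tjap1 (50.19%). Just outside were Pip5k1c (49.79%), Zfp553 (49.70%), Fam53c (49.61%), Llgl1 (49.60%) and Pold1 (49.60%).

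Among the genes by role, those of adhesion, matrix, junctions and cytoskeleton numbered 18. The roles were given by hand after the genes were known, so the counts only sort them. Igsf8, whose membrane protein binds tetraspanins, had a body share of 94.8% from 1 peak of fold 3.06. Lamb2, which encodes a laminin of basement membranes, had 85.1% from 2 peaks. Ecm1, of an extracellular matrix protein, had 74.9%. Nes, the gene of the filament protein nestin, had 63.7%, and Celsr2, of a planar polarity cadherin, 61.1% over 25.2 kb. The class ended with Tjap1, of a tight junction protein.

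Genes of transcription and chromatin numbered 24, with shares from 50.02% to 80.1%. Pbx2, of a homeodomain factor, led with 80.1% from 1 peak of fold 4.02. Daxx, of a histone chaperone, had 75.2% and Coprs, of a cofactor of an arginine methyltransferase, 72.8%. The acetyltransferase gene Kat2a had 62.2%, the clock repressor gene Nr1d1 59.9% and Cbx2, of a Polycomb subunit, 55.2%. The histone methyltransferase genes Ehmt2 (52.0%), Setd1b (50.8%) and Kmt2d (50.02%) were closer to the threshold. They were the 3 covered genes among 44 tested of the chromatin and DNA methylation list. The zinc-finger genes Zfp408 (55.6%), Zfp213 (53.7%), Zfp706 (53.2%) and Zfp646 (52.4%) were 4 of 371 tested Zfp symbols, or 1.08%, the same as the share of all tested genes.

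Genes of RNA processing, ribosome assembly and translation numbered 14, with a median share of 64.1%. Ptbp1, of a splicing repressor, had 81.9% from 1 peak of fold 3.18. Rexo2, of an RNA exonuclease of mitochondria, had 77.6%. Wdr6 (72.0%) and Dus3l (70.0%) encode tRNA modification proteins. The helicase genes Dhx16 and Ddx23, which act in the spliceosome, had 67.1% and 58.2%, and Nol6, of a nucleolar protein, 59.6%.

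Signalling genes formed the largest named class, 25 genes with shares from 50.07% to 75.8%. Pik3r2, of a regulatory subunit of phosphoinositide kinase, led with 75.8%. Cdc42ep1, of an effector of a small GTPase, had 73.4%. Fgf17, a growth factor gene of the FGF family, had 69.6% and the kinase gene Mapk3 69.3%. The guidance genes Sema4c and Plxnb2, of a semaphorin and a plexin, had 57.3% and 55.1%. Axin2 had 53.2% from 5 peaks, Vegfa, of a vascular growth factor, 52.5% and Dusp7, of a MAP kinase phosphatase, 50.07%. Gpr180 (51.5%) and Gpr162 (50.08%) were 2 of 56 tested Gpr symbols (3.57%, against 1.08% of all tested genes).

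Genes of metabolism and glycosylation numbered 18. Shmt2, of the mitochondrial enzyme that passes carbon from serine to folate, had 84.9% from 1 peak. Glrx5, of a glutaredoxin of iron-sulphur assembly, had 72.4%. Cad, of the enzyme that starts pyrimidine synthesis, had 52.0% over 23.9 kb. The ATP synthase genes Atp5o and Atp5a1 had 61.2% and 55.1%, 2 of 71 tested genes whose symbols start with Atp (2.82%, against 1.08% of all tested genes). The 8 genes of protein folding and turnover included Fkbp4 (74.2%), of a chaperone partner, Hsp90aa1 (73.3%), Psmc3 (72.1%) and the deubiquitinase gene Usp19 (67.4%). The 8 genes of cell cycle, DNA and centrosome or cilium were led by Cep131, of a centrosomal protein (69.9% over 22.4 kb), and Rrm2, of a subunit of ribonucleotide reductase (69.4%), and included the mitotic kinase gene Aurkb (60.4%). Transport genes were Aqp3, of a water and glycerol channel (94.3%), and Slc4a3, of an anion exchanger (80.7%). Slc4a3 was the 1 covered gene of 360 tested solute carriers (0.278%, against 1.08% of all tested genes).

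Immune receptor and ligand genes were Il3ra, Tlr2 (79.5%), of a receptor for bacterial lipoproteins, Cd8a (61.5%) and Flt3l (54.1%), a cytokine gene. Genes placed by hand in a class of male germ cells and fertilisation were Pxt1 (74.0%), Pkdrej (56.6%), of a sperm membrane protein, and Izumo1 (55.0%). Izumo1 encodes the sperm protein that binds the egg. The class is not a full list of such genes. The other 47 were given no class. Among them were Klhl17 (98.2%, fold 3.92), of a kelch protein that binds actin, and Lynx1 (87.4%), of a modulator of nicotinic receptors. Npepl1 (86.9%), of an aminopeptidase-like protein, and Pheta1 (86.8%), of an endosomal protein, were next, followed by Cdk5rap3 (80.0%), Vat1 (76.3%), Caskin2 (75.2%), Cd24a (73.4%) and Ren1 (73.2%). Symbols starting with Fam had 2 covered genes of 147, Fam181a (59.4%) and Fam83c (52.8%). That is 1.36%, near the 1.08% of all tested genes.

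The gene lists held from 0 to 3 covered genes each, and 1.08% of all tested genes were covered. Adhesion had 3 of 44 (6.82%), namely Igsf8, Lamb2 and Celsr2, and a median body share of 12.7%. Chromatin had 3 of 44 and a median of 8.37%. Signalling had 3 of 54 (5.56%), Fgf17, Mapk3 and Axin2, and the highest median, 16.4%. Abundantly expressed cytoskeleton, glycolysis, chaperone and translation genes had 1 of 36, Hsp90aa1, and a median of 7.36%. Developmental transcription factors had 1 of 43, Nr1d1, and a median of 8.12%, and synaptic genes 1 of 41, Lynx1, and 6.76%. The median over all tested genes was 4.10%. No set test was made, so no list is set apart by these counts. Igsf8 and Lynx1 were put in their lists when their coverage was already known. Without them adhesion had 2 of 43 (4.65%) and the synaptic list 0 of 40. Germ cell, piRNA and pluripotency genes had 0 of 33, with Tcl1, of a coactivator of AKT kinase, highest at 42.5% and a median of 8.10%. Markers of germ cells, gonadal soma and blood or endothelium had 0 of 6, 0 of 6 and 0 of 5 tested. Their body shares ran from 0% in Dazl to 32.8% in Kit, from 0% in Sox9 and Star to 21.8% in Nr5a1, and from 0% in Ptprc to 27.9% in Tie1. Covered genes were also absent among 75 olfactory receptor, 131 vomeronasal receptor, 88 Cyp, 46 protocadherin (Pcdh), 42 kinesin (Kif), 68 Trim and 30 integrin (Itg) symbols tested. These numbers are small beside a share of 1.08% over all tested genes, so a count of 0 sets no family apart. Several other families tested also held 0.

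**Figure D4:**
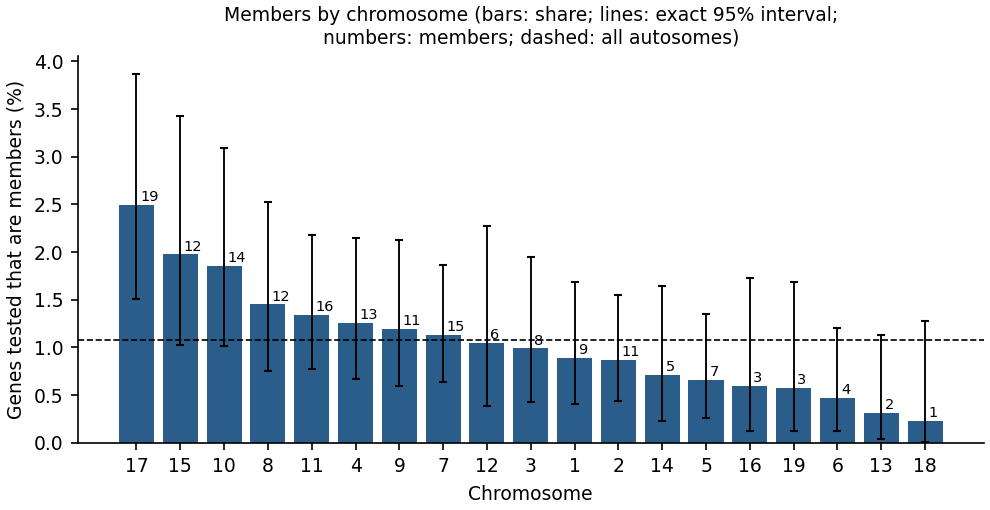
Share of tested genes that were covered (%) on each autosome, ordered by that share, with exact 95% intervals as lines, the number of covered genes above each bar and the share over all autosomes, 1.08%, dashed. Chromosome 17 stands highest at 2.49%, and only its interval lies wholly above the dashed line. The intervals are for counting error only and treat neighbouring genes as independent. They make no allowance for looking at every autosome, so they are no test of a chromosome.

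The covered genes were spread over all 19 autosomes, with chromosome 17 highest. It had 19 of 762 tested genes (2.49%, 1.51 to 3.87), and the lowest were chromosome 13 with 2 of 636 and chromosome 18 with 1 of 432. Chromosome 15 had 1.98% (1.03 to 3.43) and chromosome 10 had 1.85% (1.02 to 3.09), with intervals that hold the value of all autosomes. On chromosome 17, 8 of the 19 lay between 33909404 and 35989462 (mm10), from Daxx to Gnl1, among 73 genes tested there. That is 11.0%, against 1.08% of all tested genes, but the stretch starts and ends with a covered gene, which raises its share. They were Daxx, Rgl2, Pbx2, Atf6b, Ehmt2, Prrc2a, Dhx16 and Gnl1, and the stretch was singled out after its values were seen.

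Covered genes lay in crowded neighbourhoods. Within 500 kb of each side they had a median of 28 other protein-coding genes, against 15 for all tested genes. Among genes under 20 kb the medians were 28 and 20. The nearest other protein-coding gene was at a median of 0.609 kb, against 4.12 kb, or 0.627 kb against 2.73 kb among genes under 20 kb. In 91 of 171 covered genes (53.2%, 45.4 to 60.9) another protein-coding gene overlapped or lay within 1 kb, against 34.1% of all tested and 39.2% of tested genes under 20 kb. Some covered genes stood in sparse regions, as Axin2, with 4 other genes within 500 kb of each side, and Tlr2, Llph and Emilin3, with 5 each. Tead2, of a transcription factor of the Hippo pathway, had the most, 73.

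Some covered genes lay near each other. There were 14 groups of covered genes within 100 kb of each other, with 30 genes in all. No such count was made for other tested genes in equally crowded neighbourhoods, so the number alone does not show clustering. The groups of 3 were Lamb2, Usp19 and Wdr6 on chromosome 9, from 108479847 to 108578713, and Elmo3, Tmem208 and Plekhg4 on chromosome 8, from 105305461 to 105382860. The 12 pairs were Ankrd23 and Sema4c, Obsl1 and Slc4a3, Stac3 and Shmt2, Adcy6 and Ddx23, Daxx and Rgl2, Pbx2 and Atf6b, Dhx16 and Gnl1, Aqp3 and Nol6, Tbc1d17 and Med25, Irf3 and Scaf1, Flt3l and Tead2, and Dusp7 and Pcbp4. Lamb2 and Usp19 are 76 bp apart and Irf3 and Scaf1 97 bp. Across the boundary of Lamb2 and Usp19 coverage was broken, with peaks ending at 108489453 in Lamb2 and starting again at 108492512 in Usp19. None of the covered genes overlapped another covered gene.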

How the data were processed

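5hmC-Seal tags 5hmC with a modified glucose and biotin and captures the tagged DNA. Per the submitters' processing notes, build mm10 was used, MACS2 2.1.0 and Bowtie2 2.5.0 are among the tools, and deepTools 3.5.1, SAMtools 1.16.1, bedtools 2.27.1 and Trim Galore are the others. Which tool did what, how peaks were set and whether the uncaptured library served as control is not given in the sources used here. As deposited by the authors, the list holds 108395 broad peaks of 1 library, each with a score, a fold enrichment (a ratio), a −log10 p and a −log10 q, down to 1.01. The authors' score and p were not used further. Peaks were not filtered, and none overlapped its neighbour.

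Gene spans came from a RefSeq table of GRCm38.p6, the same assembly as mm10, with no exons. Another 48 coding genes that start in the opening 3 Mb gap of an autosome were left out. Coverage was computed with Python 3.11.15, numpy 2.4.6 and pandas 2.3.3 and tested on simulated peaks. Intervals are exact Clopper-Pearson at 95% (scipy 1.17.1), for counting error only; neighbouring genes are not independent. The genes and lists were chosen with earlier results of these data known. Named genes were the 30 largest body shares, the 5 longest, the 5 with most peaks, the 5 highest folds, 5 on each side of the threshold, those in lists, in symbol families with 2 or more, or in groups within 100 kb; a few of these are not reported here. Alternatives were other q, merging, gene span, threshold, length, sex chromosomes and 1 gene per group.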

Additional observations from a re-analysis of the deposited data

How the results depend on the processing

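The number of covered genes follows the settings most of all. Peaks of −log10 q of at least 3 and 5 gave 16 and 7 genes, the whole span 87, body shares over 40% and 60% gave 382 and 77, and minimum lengths of 10 and 20 kb 63 and 16. Under these the genes with a peak in both end windows, 13 as reported, numbered 1 and 1 at the 2 q limits, 22 and 5 at the 2 shares and 4 and 2 at the 2 lengths. Median length moved to 7.82 kb at a −log10 q of 5, to 9.74 and 7.74 kb at the 2 shares and to 14.3 and 25.9 kb at the 2 lengths. The median fold of body peaks moved to 4.82 and 6.48 at the q limits and 3.41 at 20 kb. Median flank coverage moved to 0% at both q limits, 10.7% with the whole span and 3.85% at 20 kb. A q limit drops weak peaks, which by itself lowers coverage and raises folds. A longer minimum length by itself raises the median length. Such shifts follow at least in part from the settings themselves. Moved means outside the exact 95% interval of the reported median, or over 1.5 times for a count. Merging peaks within 1 kb (199 genes), taking 2 kb off each end (246), adding X and Y (172) and 1 gene per group (155) moved none of the 5 results. Taking 2 kb off each end kept 157 of the 171, and the whole span 86. No paired analysis was possible because 1 library gave peaks and no test was made. Depth is unknown, so weak peaks could not be weighed against read number.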

Other observations

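The same limit of over 50% of the body was met by genes outside the set. It was met by 118 of 1475 autosomal protein-coding genes over 3 kb and under 5 kb (8.00%, exact 95% interval 6.67 to 9.50), and Btg2 and Cdk4, of an antiproliferative protein and a cell cycle kinase, were among those at 100%. Their bodies, less 1 kb at each end, are short, so a single peak can fill one. It was met by 57 of 8238 autosomal lncRNA genes of 5 kb or more (0.692%, 0.524 to 0.896), 3 of which overlap a covered coding gene. Malat1, of an abundant nuclear RNA, was at 100%. Pseudogenes of that length had 17 of 847 (2.01%, 1.17 to 3.19). On the X chromosome 1 of 673 coding genes met it, Asmt, and on the Y 0 of 72. The genes named here were chosen after their values were seen.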
